A study of Mus musculus with 4 samples.

Results

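The contacts described here are those of the inflammatory S100 genes S100a7a, S100a8 and S100a9 in the mouse Epidermal Differentiation Complex (EDC), the gene-dense locus of chromosome 3 that holds most genes of epidermal barrier formation. A contact was taken when at least 1 of its 2 fragments had its midpoint between 90.44 and 90.515 Mb (mm9). This window held 18 of the 712 fragments that the 4 libraries list, and its contacts numbered 4786 of 95692 and 3086 of 67210 in the keratinocyte libraries 1 and 2, and 2000 of 45861 and 2679 of 53420 in thymocyte libraries 1 and 2. Of the 23395 contacts listed in all 4 libraries, 1098 belonged to the window.

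Chromosome conformation capture carbon copy (5C) measures how often 2 restriction fragments of a locus were ligated to each other in fixed nuclei, by joining a forward probe on one fragment to a reverse probe on the other. The keratinocytes were primary epidermal cells of newborn C57BL/6 mice, plated for 15 h at 32 °C in low-calcium medium, and the thymocytes were primary cells of the thymus of newborn mice of the same strain. Both were fixed in 1% formaldehyde for 10 min, no group carried a transgene or a deletion, and the study calls the libraries of a cell type biological replicates. Whether these came from separate litters or cultures is not given in the sources used here, and p-values measure the spread between them whatever its source. The files hold no expression values, and the cell types were therefore taken from the labels without a check of their markers.

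S100A8 and S100A9 are calcium-binding proteins that join into calprotectin, a protein of neutrophils and other myeloid cells that binds zinc and manganese and acts as a danger signal. Keratinocytes make both during wound healing and in inflamed or psoriatic skin and little of them in resting epidermis. S100a7a encodes the mouse relative of human psoriasin and koebnerisin, antimicrobial and chemotactic S100 proteins of inflamed skin. Gene loci of this kind are read in 5C maps for contacts with distal enhancers and for the topologically associating domain (TAD), a stretch of chromatin whose fragments meet each other more often than they meet the neighbouring stretches.

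In the mm9 annotation (GENCODE vM1), S100a7a (ENSMUSG00000063767.2) lay on the plus strand at chr3:90458224-90462052, S100a8 (ENSMUSG00000056054.8) on the plus strand at chr3:90472993-90473956 and S100a9 (ENSMUSG00000056071.6) on the minus strand at chr3:90496554-90499643. The start site of S100a7a was in reverse fragment 170, that of S100a8 in reverse fragment 175, which held the whole gene with its 3 annotated exons, and that of S100a9 was 63 bases beyond the end of reverse fragment 186, in a stretch without a listed fragment. The numbers are those of the probe design. Nearest to the window edges, fragment 169 (midpoint 90.4459 Mb) was the first inside it, fragment 168 (midpoint 90.4374 Mb) was the last outside its start, and fragment 189 (midpoint 90.5111 Mb) was the last inside its end.

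The probe sequences below are shown because each measured contact is a ligation between these short ends, and they mark where in each gene the contacts were read. They are the locus-specific 30 bases of the probes, 5′ to 3′, with the universal tails left out and the 3 bases of the cut HindIII site, where a forward probe meets a reverse probe, in capitals. A forward probe has the plus-strand sequence at the right end of its fragment and a reverse probe the minus-strand sequence there. The first 3 of them lie in or beside S100a7a and S100a8, the next 3 in and around S100a9, and the last 4 at partners to which the results return.
Reverse 170, S100a7a start site, fragment chr3:90449782-90459179: CTTtcctgcctgaactaagagtgagtccct
Forward 171, 2 exons of S100a7a, fragment chr3:90459180-90463360: ggcctgtcttttctgtagactgggcagAAG
Forward 174, 39 bases before the S100a8 start site, fragment chr3:90471972-90472954: tatcggcgaggctgtgggcagctggccAAG
Forward 183, intergenic and 6617 bases from the S100a9 start site, fragment chr3:90490837-90493026: gtgatagctacttaacccaagtggtagAAG
Reverse 184, 1 exon of S100a9, fragment chr3:90493027-90497380: CTTtaacaactagttgcctcccagaaaacg
Forward 185, 2 exons of S100a9, fragment chr3:90497381-90499270: aagttacaaataaaagaatgggataccAAG
Reverse 88, start site of Ints3, fragment chr3:90237088-90238587: CTTactcaggaggattgtagaatgccagaa
Reverse 132, S100a14 with its start site, fragment chr3:90330428-90332070: CTTccaaactccagtttcgagtcattacag
Reverse 164, intergenic between S100a6 and S100a7a, fragment chr3:90422210-90424819: CTTgagcaactcaaaggcactaatggagtt
Reverse 856, intergenic and 390 bases from the Ivl start site, fragment chr3:92378027-92379194: CTTgaatacatgtcagagcactggaaagga
Each of these matched mm9 at all 30 bases except forward 174, where the 24 bases next to the HindIII site matched.

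For each listed contact the files give the observed 5C frequency corrected for the performance of its probes, the frequency expected at that genomic distance, and a Z score, the excess of the first over the second divided by the standard deviation found at that distance. A contact was called an interaction of a cell type when its q-value was under 0.05 in both libraries. Contacts missing from a library have no value, which differs from a frequency of 0. The number of reads behind each value is unknown, so no counting error is given.

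The first keratinocyte library listed 83.2% of the possible window contacts, the second 53.5%, and the thymocyte libraries 32.4% and 44.6%, so that the comparison between cell types rests on the contacts that all of them list. In the first keratinocyte library 5.56% of the listed window contacts had a q-value under 0.05, against 15.7% in the second and 16.2% and 15.5% in the thymocyte libraries. Over all contacts that each library lists, the shares were 5.99% and 11.4% in keratinocytes and 11.7% and 14.5% in thymocytes. The Z scores of window contacts correlated weakly between the libraries of a cell type, with Pearson's r of 0.306 in keratinocytes (2797 contacts) and 0.315 in thymocytes (1391 contacts), where contacts share fragments and are not independent. The expected frequency did not fall steadily with distance beyond 2000 kb. At 2000 to 2020 kb its median was 56.6 and 34.5 in keratinocytes and 48.9 and 24.9 in thymocytes, and at 4000 to 4020 kb it was 58.5 and 35.6 against 107 and 82.0, whereas at 100 to 120 kb it was 670 and 428 against 338 and 299. At 2677 kb, the distance of 1 contact described below, the expected value was 70.6 in the first thymocyte library and 13.96 in the second, against 50.7 and 27.2 in keratinocytes. Observed frequencies are therefore given for single contacts over 1000 kb, and the part of the expected frequency in their Z scores was not tested.

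Over the window as a whole the direction of the difference depended on the summary. Over its 1098 contacts listed in all 4 libraries, keratinocyte mean Z scores were 0.611 and 0.946, and thymocyte ones 0.998 and 0.931. The means of the cell types, 0.779 ± 0.238 and 0.964 ± 0.0473 (SD, n = 2 libraries each), differed by −0.186 (keratinocytes minus thymocytes; two-sided exact permutation test, p = 0.667, where the smallest p that 2 libraries against 2 can give is 0.333). The mean log2 observed over expected frequency did not overlap, with 0.06 and 0.09 in keratinocytes and 0.12 and 0.18 in thymocytes (difference −0.08; exact permutation test, p = 0.333). All window contacts that each library lists gave −0.370 in Z score (p = 0.333 by the same exact test), but these sets differ between libraries. Their means were 0.203 and 0.793 in keratinocytes and 0.898 and 0.838 in thymocytes, lowest in the library with the largest listed share. For all listed contacts of the locus they were 0.241 and 0.583 against 0.660 and 0.757. The median over the 1098 contacts gave a difference of the opposite sign, 0.134, also with p = 0.333 by the exact test. Without the first keratinocyte library the difference of the means was −0.0178, and without the second it was −0.354. Over all 23395 contacts of the locus the means were 0.515, 0.577, 0.613 and 0.701 in the same order. Both keratinocyte Z scores lay above both thymocyte Z scores at 220 window contacts (20.04%, against 21.1% of all contacts of the locus) and below them at 217 (19.8%, against 19.1%). In limma on the Z scores of all 23395 contacts, 0 window contacts passed an adjusted p of 0.05 (0% of all contacts), and 56 (5.10%) had an unadjusted p under 0.05, against 5.11% of all contacts.

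Where the contacts of the window went differed by region, as the plot of partner regions shows. With fragments of TAD1, the domain that holds the window itself, the mean Z score over 424 contacts was 1.15 and 1.45 in keratinocytes and 1.13 and 0.905 in thymocytes. The libraries of the cell types did not overlap, and the difference was 0.283 in Z score and 0.22 in mean log2 observed over expected frequency (exact permutation test, p = 0.333 for each, the smallest possible). With TAD2, the gene-poor domain to the right of TAD1, the order was the opposite. The mean Z score over 81 contacts was −0.520 and −0.327 in keratinocytes and 0.359 and 0.774 in thymocytes, a difference of −0.990 (exact permutation test, p = 0.333). On the log2 observed over expected scale the means were −0.92 and −0.45 in keratinocytes and −0.11 and 0.17 in thymocytes, again without overlap. Both keratinocyte Z scores lay below both thymocyte ones at 30 of the 81 contacts (37.0%, against 19.1% of all contacts of the locus). They lay above them at 8 (9.88%, against 21.1%). Their mean log2 observed frequency was close in the cell types, 6.47 and 6.10 in keratinocytes and 6.13 and 6.35 in thymocytes, whereas with TAD1 it was 9.22 and 8.32 against 7.64 and 7.67. The sign of the TAD2 difference was the same under each of its 10 alternatives, of which a minimum distance of 20 kb could not change it.

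**Figure D1:**
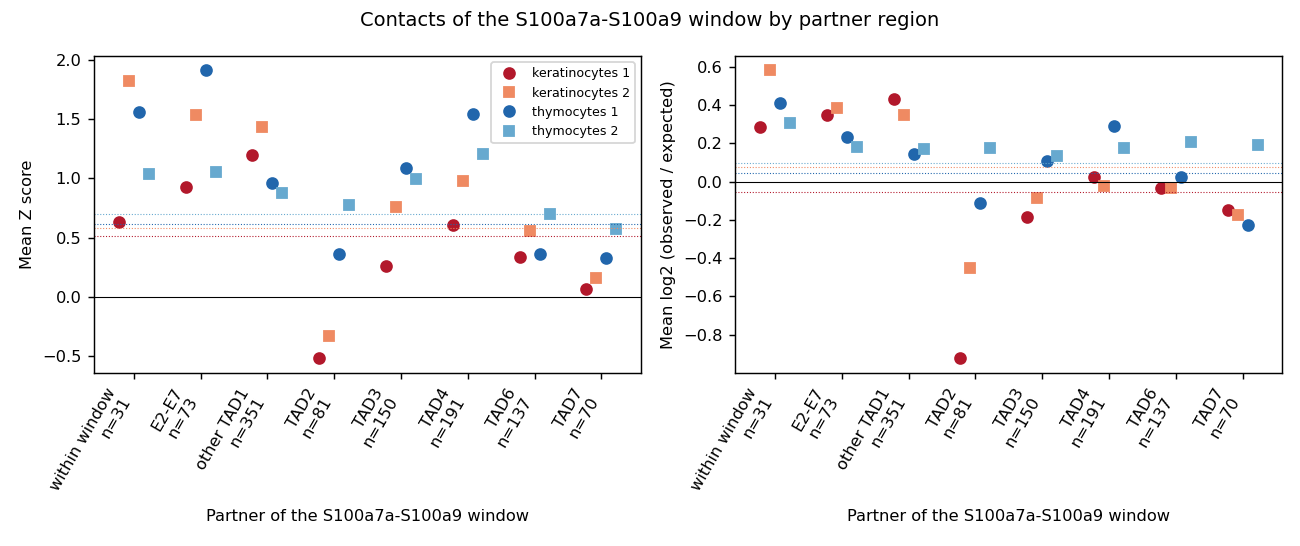
Mean Z score (left) and mean log2 observed over expected frequency (right) of the contacts between the S100a7a-S100a9 window and each partner region, over the n contacts listed in all 4 libraries, with 1 point per library and the mean over every contact of the locus as dotted lines. TAD5 (14 contacts) is left out. The 2 keratinocyte points lie below 0 for TAD2 and above both thymocyte points for the fragments of TAD1 outside E2 to E7.

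Other fragments of TAD1 showed the same order with TAD2, with mean Z scores of −0.228 and 0.267 in keratinocytes and 0.606 and 0.665 in thymocytes over 527 contacts without a window fragment. The window minus these other fragments was −0.293 and −0.595 in keratinocytes and −0.247 and 0.109 in thymocytes, and the difference of this gap between cell types was −0.374 (exact permutation test, p = 0.333). Within TAD1, contacts without a window fragment had mean Z scores of 0.650 and 0.835 in keratinocytes and 0.851 and 1.03 in thymocytes. The window exceeded them by 0.499 and 0.612 in keratinocytes, and by 0.274 and −0.123 in thymocytes (difference 0.480; exact permutation test, p = 0.333).

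TAD3 and TAD4 hold the Sprr, Ivl, Lce and Flg families, whose products build the cornified envelope. Over 341 contacts the window met them with mean Z scores of 0.453 and 0.881 in keratinocytes and 1.34 and 1.11 in thymocytes (difference −0.562; exact permutation test, p = 0.333). The median over contacts differed by 0.0833 in the opposite direction. The keratinocyte Z scores lay wholly below the thymocyte ones at 72 of these contacts (21.1%, against 19.1% of all contacts of the locus). They lay wholly above them at 62 (18.2%, against 21.1%). Without the first keratinocyte library the difference was −0.347. Other TAD1 fragments had the same order with TAD3, with mean Z scores of 0.196 and 0.647 in keratinocytes and 0.872 and 1.17 in thymocytes, and the gap between the window and them differed between the cell types by 0.067 (exact permutation test, p = 1). With TAD4 the other TAD1 fragments had 0.544 and 0.896 against 0.827 and 0.998, which overlapped, and the gap differed by −0.391 (exact permutation test, p = 0.333). With TAD6 and TAD7, which lie beyond the EDC, the means were 0.245 and 0.420 in keratinocytes and 0.353 and 0.656 in thymocytes over 207 contacts and overlapped between the cell types (difference −0.172; exact permutation test, p = 0.667). This difference ranged from −0.324 without the first thymocyte library to −0.0201 without the second.

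**Figure D2:**
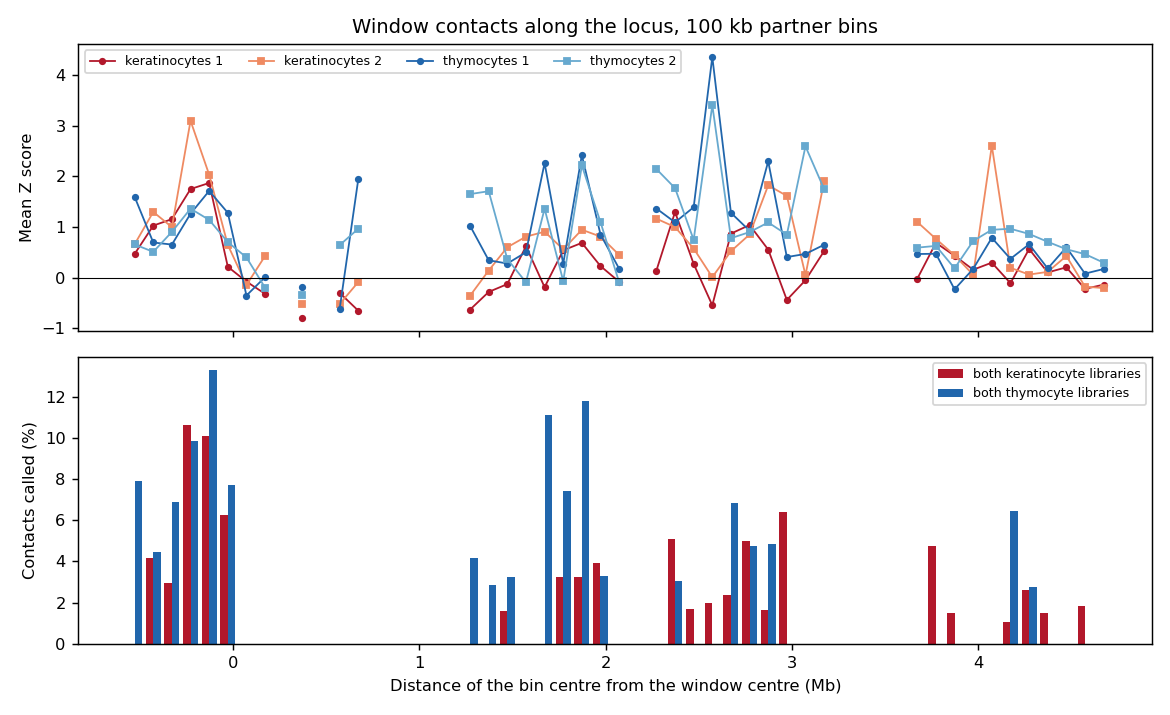
Top, mean Z score of the window's contacts in 100 kb bins of partner position, against the distance of the bin centre from the window centre in Mb (negative toward TAD1), with 1 line per library and only bins of at least 5 contacts listed in all 4 libraries. Bottom, the percentage of contacts listed in both libraries of a cell type that were called in both, for bins with at least 20 such contacts. The second keratinocyte library peaks at 3.10 in the bin from 90.2 to 90.3 Mb, and the highest thymocyte values, 4.35 and 3.40, are in the bin from 93.0 to 93.1 Mb, over 9 contacts.

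Of 2797 window contacts listed in both keratinocyte libraries, 77 were called in both (2.75%, against 1.99% of all contacts of the locus). Of 1391 listed in both thymocyte libraries, 81 were called (5.82%, against 4.03% of all). Where all 4 libraries list the contact, 26 were called in keratinocytes only (2.37%, against 1.45%), 57 in thymocytes only (5.19%, against 3.19%) and 10 in both cell types (0.911%, against 0.581%). Of the 26 contacts called in keratinocytes only, 16 were also called in 1 thymocyte library, and of the 57 called in thymocytes only, 27 were also called in 1 keratinocyte library. A further 41 keratinocyte interactions had a value in 1 or no thymocyte library, and 14 thymocyte interactions had a value in 1 or no keratinocyte library, so whether these differ between the cell types cannot be read from the files.

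Of the keratinocyte interactions, 36 of 77 had their other end in TAD1, where 5.33% of the listed window contacts were called. In thymocytes 38 of 81 did (8.17% of those listed). Contacts within TAD1 that did not involve the window were called in 1.95% of cases in keratinocytes and 7.41% in thymocytes. With TAD2, 1 of 272 window contacts was called in keratinocytes (0.368%, against 0.283% for other TAD1 fragments) and 3 of 126 in thymocytes (2.38%, against 4.77%). With TAD3 the counts were 12 of 444 (2.70%, against 1.42%) and 12 of 220 (5.45%, against 4.14%). With TAD4 they were 17 of 614 (2.77%, against 2.21%) and 15 of 269 (5.58%, against 4.12%). With TAD6 they were 8 of 477 (1.68%, against 2.05%) and 7 of 178 (3.93%, against 2.35%), and with TAD7 2 of 237 (0.844%, against 1.84%) and 0 of 82 (against 0.967%). No test of these shares was made, since contacts that share a fragment are not independent.

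The counts by partner group are to be read beside the shares called over all contacts of the locus, 1.99% in keratinocytes and 4.03% in thymocytes. They were not tested against these shares. Among the neighbours in the EDC, the genes S100a1, S100a13, S100a14 and S100a16 at the left held 7 interactions with the window in each cell type, of 83 and 58 listed contacts. The nearer S100a2 to S100a6 genes held 2 of 44 and 5 of 39. Pglyrp4, a peptidoglycan recognition gene and the next gene to the right of the window, held none in either cell type, of 77 and 55 contacts. Fragments nearest to Pglyrp3, Lor, Prr9 or Lelp1, many of them in the gene-poor TAD2, held 1 of 178 and 3 of 100. The keratinocyte one was with fragment 503 in TAD2, nearest to Pglyrp3 and not to Lor. The Sprr genes held 3 of 149 and 7 of 80, and the involucrin region (Ivl, Smcp, Lce6a) 4 of 87 and 2 of 29. The Lce1 genes held 4 of 136 and 2 of 76, the Lce3 genes with Crct1 3 of 101 and 3 of 37, and the filaggrin and trichohyalin group 7 of 285 and 8 of 124. S100a10 and S100a11, the S100 genes at the far end of the EDC, held 4 of 146 and 3 of 64, and Tdpoz genes 1 of 48 and 0 of 23.

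All 11 partner fragments with 2 or more keratinocyte interactions were in TAD1, of 62 partner fragments with any. In thymocytes 11 of 62 had 2 or more, and 6 of these were in TAD1. The fragment next to Chtop (reverse 114), Ints3 fragments 82 and 88 and the fragment behind S100a14 (reverse 134) each had 3 keratinocyte interactions with the window. Chtop encodes a chromatin-bound factor of mRNA export and Ints3 a subunit of the Integrator complex. Over the 7 contacts of fragment 114 with the window listed in all 4 libraries, the mean Z score was 4.44 and 8.86 in keratinocytes and 3.24 and 4.08 in thymocytes, and 2 of them were thymocyte interactions.

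Fragment 180, intergenic and 10400 bases to the right of the S100a8 start site, carried the 2 contacts with the largest differences in mean Z score toward keratinocytes, 10.2 and 8.64, among the non-overlapping contacts listed in all 4 libraries. With the Ints3 start site (reverse 88), 245 kb away, its observed frequency was 1947 and 1952 in keratinocytes, against expected values of 456 and 254. In thymocytes it was 248 and 127, against expected values of 166 and 152. The Z scores of 6.74 and 14.4 in keratinocytes lay above those of 1.20 and −0.427 in thymocytes. With the fragment next to Chtop, 181 kb away, the observed frequency was 2140 and 2356 in keratinocytes and 414 and 391 in thymocytes, with Z scores of 6.48 and 14.9 against 2.57 and 1.56. Both contacts were thus several times the expected frequency in keratinocytes and at most 2.09 times it in thymocytes.

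Other window fragments also met the Chtop fragment, and others met partners near Ints3. Fragment 169, to the left of S100a7a, met the Chtop fragment 139 kb away with observed over expected ratios of 5.75 and 6.61 in keratinocytes and 6.48 and 4.63 in thymocytes, which overlapped. Fragment 183, left of S100a9, met Ints3 fragment 82 at observed frequencies of 1771 and 1445 in keratinocytes and 338 and 376 in thymocytes. The ratios to the expected frequency were 4.09 and 6.26 against 2.31 and 2.55, without overlap. Fragment 183 also met a fragment at the start site of Slc27a3, a fatty acid transport gene, at 1365 and 1418 against 714 and 368. There the ratios of 3.44 and 7.26 against 5.16 and 2.87 overlapped. These 2 contacts of fragment 183 were interactions in both cell types. Fragment 188, right of S100a9, met the Chtop fragment with Z scores of 4.88 and 11.9 against 4.38 and 1.76, an interaction of keratinocytes that only the first thymocyte library also called.

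Enhancers E2 to E7 are the putative keratinocyte enhancers that lie among the S100a1 to S100a6 genes, to the left of the window. Over the 73 contacts of the window with fragments within 10 kb of them, the mean Z score was 0.931 and 1.53 in keratinocytes and 1.91 and 1.05 in thymocytes (difference −0.252; exact permutation test, p = 0.667). The mean log2 observed over expected frequency was 0.35 and 0.39 in keratinocytes and 0.23 and 0.18 in thymocytes, a difference of 0.16 in the other direction (exact permutation test, p = 0.333). Leaving out the first thymocyte library also turned the Z score difference to 0.177, so the enhancers as a group gave no direction that held across scales. Of the listed contacts, 9 of 107 were called in keratinocytes (8.41%, against 1.99% of all contacts of the locus) and 11 of 81 in thymocytes (13.6%, against 4.03%). With the rest of TAD1 outside E2 to E7, the window had 27 of 569 called in keratinocytes (4.75%) and 27 of 384 in thymocytes (7.03%). The mean Z scores there were 1.19 and 1.43 in keratinocytes and 0.962 and 0.874 in thymocytes, and E2 to E7 were not tested against them.

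By gene the values were as follows, and differences between genes were not tested. For S100a9, whose fragments are 182 to 189, the mean log2 observed over expected frequency with E2 to E7 was 0.52 and 0.34 in keratinocytes and −0.16 and 0.05 in thymocytes over 32 contacts, and for S100a8 (fragments 173 to 180) it was 0.22 and 0.30 against 0.35 and 0.12 over 31. For S100a7a (fragments 169 to 171) it was 0.19 and 0.80 against 1.12 and 0.76 over 10 contacts. On this scale only the S100a9 values did not overlap between the cell types (difference 0.48; exact permutation test, p = 0.333). As mean Z scores they overlapped for S100a9, with 1.32 and 1.45 against 1.46 and 0.861, and for S100a8. For S100a7a the mean Z scores did not overlap, with 0.488 and 2.30 in keratinocytes against 5.16 and 2.60 in thymocytes. The S100a7a difference in Z score was −2.48 (exact permutation test, p = 0.333).

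Gene fragments, taken as those overlapping a gene or within 5 kb of it, had 11 interactions with fragments near an enhancer of the locus, 5 of them in keratinocytes and 8 in thymocytes, with 2 in both. The share of listed contacts behind these counts is not given here. Over all contacts of the locus 1.99% were called in keratinocytes and 4.03% in thymocytes. The S100a7a start-site fragment met fragment 163, beside E7 and 28 kb away, at 3833 and 2314 in keratinocytes against expected values of 1365 and 806. In the first thymocyte library it was 270 against 873, and the second lists no value, so that the Z scores were 4.23 and 4.18 in keratinocytes and −1.74 in the 1 thymocyte library. The same start-site fragment met fragment 154, near E4 and E5, with Z scores of 0.337 and 4.15 in keratinocytes and 7.89 and 3.43 in thymocytes, where it was called.

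Fragment 183 beside S100a9 held the enhancer contact with the highest mean Z score of the 11 in both cell types, with fragment 164 near E7 at 66 kb. Its observed frequency was 2418 and 3496 in keratinocytes and 3881 and 2855 in thymocytes, and the Z scores were 3.23 and 13.5 against 22.9 and 15.7, all called. With the S100a14 fragment 132 near E2 and E3, the ratios of observed to expected frequency were 3.29 and 5.16 in keratinocytes, where it was called, and 3.70 and 1.65 in thymocytes. With fragment 126 in an intron of S100a13 near E2 they were 1.48 and 3.25 against 2.05 and 3.51, and the call was made in thymocytes. Fragment 188, to the right of S100a9, met fragment 134 near E2 and E3 at ratios of 2.20 and 2.54 in keratinocytes, where it was called, and 2.09 and 0.222 in thymocytes. By ratio the last of these 4 contacts did not overlap between the cell types and was higher in keratinocytes, whereas the first overlapped by ratio and observed frequency and was wholly lower in keratinocytes by Z score.

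Fragments overlapping S100a8 or within 5 kb of it met enhancers as called interactions in thymocytes and not in keratinocytes. Calls were also more frequent in thymocytes over all contacts of the locus (4.03%, against 1.99% in keratinocytes). Fragments nearest to S100a8 but more than 5 kb from it were not part of this selection. Fragment 173, before S100a8, met fragment 159 (S100a4 and the start of S100a5, near E6 and E7) with Z scores of −0.0846 and −0.811 in keratinocytes and 2.56 and 6.41 in thymocytes. Fragment 176, behind S100a8, met fragment 143 near E4 at ratios of 1.15 and 1.80 against 3.10 and 2.31. Fragment 174, just before the S100a8 start site, met a fragment near E10 and 2677 kb away with observed frequencies of 43.7 and 17.8 in keratinocytes and 270 and 110 in thymocytes. Fragment 177 met fragment 1151 near E11, in an intron of S100a10, at 33.5 and 34.4 against 87.9 and 223. The S100a9 fragment 184 met the same E11 fragment 2863 kb away at 127 and 160 in keratinocytes and 383 and 147 in thymocytes, and this contact was called in both cell types, with Z scores of 2.80 and 8.84 against 17.2 and 5.58. In each of the first 4 the 2 thymocyte Z scores lay above both keratinocyte ones.

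**Figure D3:**
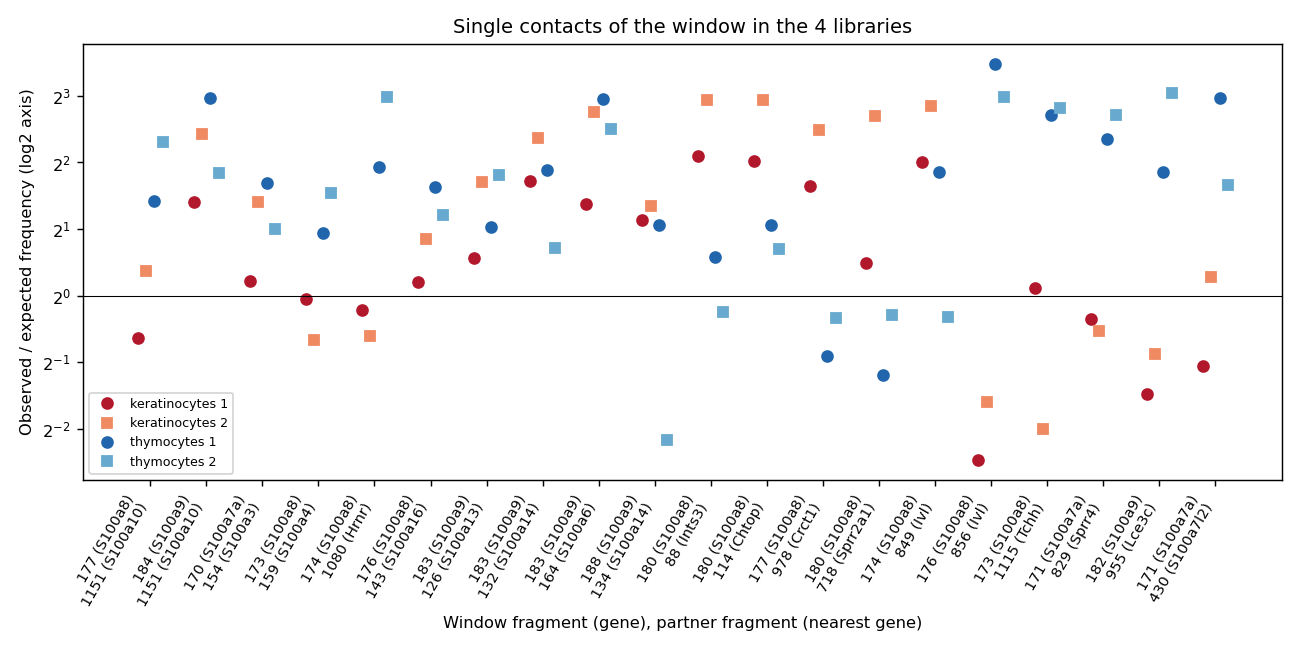
Observed over expected 5C frequency (log2 axis, line at 1) of the enhancer contacts (left) and of the 5 largest differences toward each cell type (right) that all 4 libraries list, each named by its window fragment with the nearest of the 3 genes and its partner fragment with the nearest gene, with 1 point per library. Keratinocyte points lie above thymocyte points for fragment 180 with Ints3 and Chtop and for fragment 177 with Crct1, and below them for fragment 176 with Ivl and for the contacts with Tchh, Sprr4 and Lce3c.

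Single distant contacts separated the cell types in both directions. Fragment 177, between S100a8 and S100a9, met a fragment near Crct1, a cysteine-rich gene of the EDC, 2333 kb away at 175 and 185 in keratinocytes and 26.5 and 21.2 in thymocytes, with Z scores of 3.36 and 9.91 against −1.08 and −0.382. Fragment 180 met a fragment 31635 bases from Sprr2a1 at 106 and 258 in keratinocytes and 18.8 and 20.004 in thymocytes, with Z scores of 0.722 and 11.9 against −1.42 and −0.456, a difference carried by the second keratinocyte library and not called. Fragment 174 before S100a8 met fragment 849, 11217 bases from Ivl, at 226 and 247 in keratinocytes and 98.6 and 14.3 in thymocytes, and the first thymocyte library also called it.

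By Z score, the 5 largest differences toward thymocytes exceeded the 5 largest toward keratinocytes. Z scores were also more widely spread in thymocytes over the whole locus. Over all contacts each library lists, their standard deviation was 1.56 and 2.32 in keratinocytes and 2.63 and 2.90 in thymocytes. The part of that spread in these differences was not tested. Fragment 176, behind S100a8, met fragment 856 beside the start site of Ivl, which encodes the cornified envelope precursor involucrin, at 10.7 and 10.2 in keratinocytes and 332 and 103 in thymocytes, against expected values of 59.5, 30.8, 29.8 and 12.9. Its Z scores were −1.32 and −1.42 against 24.2 and 16.7, a difference of −21.9. Fragment 173 met a fragment in Tchh, the trichohyalin gene of hair follicles, at 56.0 and 8.24 against 415 and 281, with Z scores of 0.145 and −1.53 against 12.9 and 14.8. The S100a7a fragment 171 met one near Sprr4 at 45.2 and 23.8 against 184 and 146, with Z scores of −0.379 and −0.604 against 10.3 and 14.8. Fragment 182 met one near Lce3c at observed frequencies of 20.6 and 20.4 against 208 and 107 (expected values of 57.3 and 12.98 in the thymocyte libraries), and fragment 171 met fragment 430 in TAD2 at 80.2 and 116 against 463 and 171. In each of these 5 the thymocyte contact was called and both its values exceeded both keratinocyte values. They and the 5 in the other direction were chosen for the size of the difference, and none passed limma's adjusted threshold over the whole locus.

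S100a7a fragments had their highest keratinocyte Z scores with the Chtop fragment, with fragment 1122 near Tchhl1 (3.24 and 16.6, and −0.721 in the 1 thymocyte library that lists it, at observed frequencies of 148, 258 and 23.6) and with a fragment in Npr1, the natriuretic peptide receptor gene (5.41 and 13.2, and 6.65 in the 1 thymocyte library). In thymocytes they were with the Snapin fragment 110 (14.1 and 14.6, and 6.43 in the 1 keratinocyte library), with Ilf2 fragment 102 (12.4 and 17.3, against 1.29 and 12.1 in keratinocytes) and with Them4 in TAD6, which neither keratinocyte library lists. S100a9 fragment 182 met Sprr2f at 363 and 70.9 in thymocytes and 42.9 and 190 in keratinocytes, with overlapping Z scores of 20.1 and 4.45 against −0.698 and 8.06.

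By gene, with every window fragment given to the gene nearest its midpoint, the contacts with the rest of the locus had mean Z scores of 1.04 and 1.94 in keratinocytes and 3.01 and 2.23 in thymocytes for S100a7a (85 contacts; difference −1.13; exact permutation test, p = 0.333). For S100a8 they were 0.501 and 0.775 against 0.779 and 0.920 (512 contacts; difference −0.212; exact permutation test, p = 0.333), and for S100a9 0.650 and 0.896 against 0.834 and 0.699 (470 contacts; difference 0.00637; exact permutation test, p = 1). The S100a7a difference was −0.683 without the first keratinocyte library and −0.743 without the first thymocyte library, and the S100a8 difference was −0.0750 and −0.349 without the first and the second keratinocyte library. S100a7a had the fewest contacts in all 4 libraries, and on its own 7.51% of its 373 listed contacts were called in keratinocytes and 16.1% of 137 in thymocytes. For S100a8 the shares were 1.80% of 1276 and 5.03% of 656, and for S100a9 2.36% of 1102 and 3.71% of 566. Over all contacts of the locus they were 1.99% and 4.03%.

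S100a9 fragments met TAD1 with mean Z scores of 1.28 and 1.44 in keratinocytes and 0.958 and 0.692 in thymocytes over 183 contacts (difference 0.537; exact permutation test, p = 0.333), and S100a8 fragments with 0.942 and 1.25 against 0.810 and 0.872 over 201 (difference 0.255; p = 0.333 by the same exact test). S100a7a fragments met TAD1 with 1.58 and 2.46 against 3.47 and 2.04 over 40 contacts, which overlapped. The difference in Z score was −0.741, in the other direction (exact permutation test, p = 0.667). Their mean log2 observed over expected frequency was 0.38 and 0.47 against 0.76 and 0.06, which overlapped too, with a difference of 0.016. With TAD2, S100a9 fragments had −0.608 and −0.485 against 0.107 and 0.446 over 36 contacts, and S100a8 fragments −0.471 and −0.346 against −0.0821 and 0.667 over 40. S100a7a fragments had 5 contacts with TAD2, with −0.285 and 0.956 against 5.71 and 3.99. For each gene both keratinocyte values with TAD2 lay below both thymocyte values.

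The fragments of the window were unequally measured, as the plot of contacts per fragment shows. Reverse 170, with the S100a7a start site, was listed in 273 and 87 contacts in keratinocytes and in 24 and 44 in thymocytes, and 14 of its 80 contacts listed in both keratinocyte libraries were called, the most of any window fragment in that cell type. Reverse 175, which holds the whole of S100a8, was listed in 146, 31, 29 and 37 contacts and had 1 keratinocyte and 0 thymocyte interactions. Reverse 186, in S100a9, had no listed contact in either keratinocyte library and 9 and 15 in the thymocyte libraries, with no call. The calls of thymocytes were spread over 169 and 180 with 12 each, 176 with 11 and 184 with 9. Forward 185 in S100a9, by contrast, was called in 25 contacts in the first keratinocyte library and in 8, 3 and 6 in the others.

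**Figure D4:**
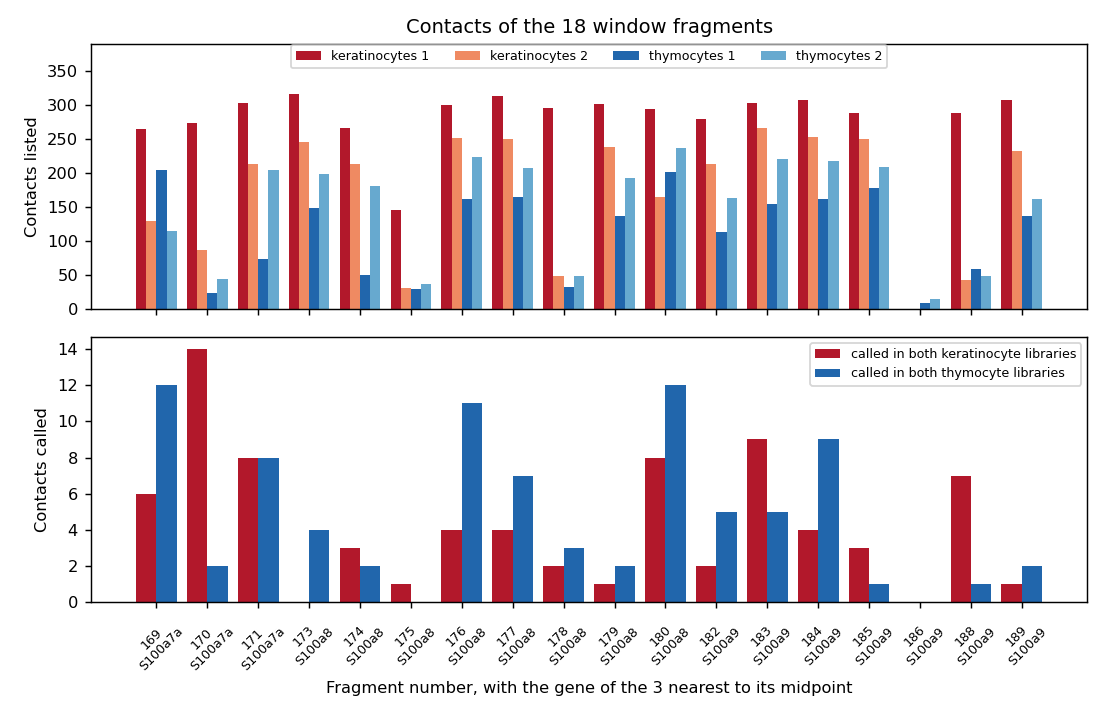
Contacts listed in each library (top) and contacts called in both libraries of a cell type (bottom) for each of the 18 window fragments, in order along the chromosome and labelled with the nearest of the 3 genes. The bars for fragments 170, 175, 178, 186 and 188 are low in 3 or all libraries, and fragment 170 has 14 keratinocyte and 2 thymocyte interactions.

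Inside the window, 66 contacts between 2 of its fragments were listed in any library and 31 in all 4. Their mean log2 observed over expected frequency was 0.29 and 0.58 in keratinocytes and 0.41 and 0.31 in thymocytes, a difference of 0.07 with overlapping libraries (exact permutation test, p = 1). Their mean log2 observed frequency was lower in keratinocytes, 11.57 and 11.27 against 11.99 and 12.05, and the gap was seen at the shortest distances, in the rest of the locus too. Below 10 kb it was 12.59 and 12.78 against 14.50 and 14.82 over 12 contacts, beside 12.36 and 11.93 against 13.70 and 14.15 for the rest of the locus over 376, and from 10 to 30 kb it was 11.05 and 10.34 in keratinocytes and 10.55 and 10.75 in thymocytes, which overlapped.

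Inside the window, 5 of 32 contacts listed in both thymocyte libraries were called (15.6%, against 4.03% of all contacts of the locus) and 0 of 46 in keratinocytes (against 1.99%). Of the 31 contacts, the keratinocyte Z scores lay wholly above the thymocyte ones at 3 and wholly below them at 6 (9.68% and 19.4%, against 21.1% and 19.1% of all contacts of the locus). The S100a9 fragment 184 met fragment 176, behind S100a8, at ratios of observed to expected frequency of 1.42 and 2.79 in keratinocytes and 2.44 and 2.51 in thymocytes, and fragment 180 at 1.91 and 4.92 against 4.39 and 2.66. Fragment 180 also met fragment 177 at 1.79 and 4.00 against 2.58 and 2.26 and fragment 179 at 2.10 and 3.19 against 3.48 and 3.27, and fragment 176 met fragment 177 at 2.02 and 4.32 against 3.08 and 2.59. In each of these 5 the second keratinocyte library was as high as or higher than at least 1 thymocyte library for all but the pair of 180 and 179, and the first one was the lowest of all 4 libraries. Each of the 5 had a q-value under 0.05 in the second keratinocyte library too and missed it only in the first.

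Contacts between fragments of 2 different genes made up 43 of the 66, and 19 of these were listed in all 4 libraries. S100a7a fragment 170 with fragment 183 left of S100a9, 32 kb apart, had ratios of 1.73 and 2.83 in keratinocytes and 1.32 and 0.703 in thymocytes, which did not overlap. S100a9 fragment 185 with fragment 173 before S100a8 had 2.22 and 1.30 against 0.992 and 1.03, whereas with fragment 177 its values of 1.74 and 1.04 overlapped those of 0.937 and 1.11. Fragment 169 with fragment 173 had 0.667 and 0.212 against 1.74 and 1.03, lower in keratinocytes. The fragment that holds S100a8 (175) has no listed value with S100a9 fragment 185 in any library.

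**Figure D5:**
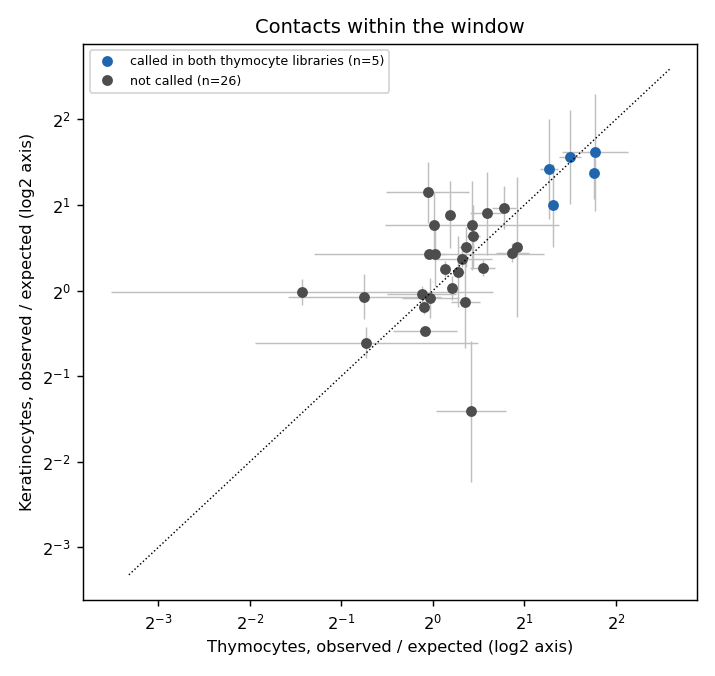
Observed over expected 5C frequency of the 31 contacts inside the window listed in all 4 libraries, thymocytes (x axis) against keratinocytes (y axis), both on log2 axes. Points are geometric means of 2 libraries, grey bars run from the lower to the higher library, and the dotted line marks equal values. The 5 contacts called in both thymocyte libraries lie at the upper right, where the keratinocyte bars also reach high values.

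The neighbouring S100a2 to S100a6 stretch, from enhancer E4 to the start of the window with 14 fragments, shared 280 partner fragments with the window. Over these, the mean Z score of the window minus that of the stretch was −0.0350 and −0.0879 in keratinocytes and −0.169 and 0.199 in thymocytes (difference −0.0766; exact permutation test, p = 1). The thymocyte libraries lay on both sides of the keratinocyte ones, so no difference from the neighbouring stretch was detectable.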

How the data were processed

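The 5C libraries covered 2 keratinocyte and 2 thymocyte samples, grouped by their titles. The authors aligned reads with Bowtie to the probe sequences (mm9), dropped probes of poor performance as well as isolated outlying contacts, and corrected each probe for coverage. The deposited signal columns hold the corrected frequency, the frequency expected at that distance from a Loess fit and its standard deviation. The deposited score is the Z score, and the authors deposited p-values and q-values from a Weibull fit per library. The other deposited column is the distance in kb. No read counts were used here, so depth is unknown.

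Fragments were placed by midpoint against the window, the average keratinocyte TAD borders of the study and its enhancers (within 10 kb), and named by the nearest GENCODE vM1 gene on mm9, with older symbols updated through RefSeq synonyms (146 of 150 genes matched). Library means over contacts listed in all 4 libraries were compared with two-sided exact permutation tests. limma 3.58.1 (lmFit, eBayes with trend, Benjamini-Hochberg) was fitted to the Z scores of all 23395 such contacts in R 4.3.3. On simulated data it recovered 189 of 200 contacts shifted by 4 in Z score when all contacts had the median spread. It recovered 0 of 200 at a shift of 16 when each kept its own spread, itself estimated from 2 libraries per cell type. These settings disagree, so its power in these data is unknown, and 0 passing contacts do not show that the cell types are alike. Named contacts were enhancer contacts of gene fragments called in either cell type, the 5 largest non-overlapping differences in each direction, the 3 highest called contacts of each gene in each cell type, and contacts between genes; fragments with few or many calls and contacts that continue these were added after their values were seen. The members and lists were chosen with earlier results of these data known. Alternatives were other summaries, scales, edges, distances and thresholds, a replicate block, and leaving out each library. The probe sequence of 1 partner fragment is not reported here.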

Additional observations from a re-analysis of the deposited data

How the results depend on the processing

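Of 130 recomputed values, 102 kept their direction or stayed within 1.5 times the count, 16 reversed and 12 counts moved further. Some of the 102 could not have changed, such as the mean of all window contacts under a replicate block. The same holds for TAD2 under a minimum distance of 20 kb, which all its contacts exceed. All values are keratinocytes minus thymocytes unless they are counts, and the cause of each change was not tested. Taking the median over contacts reversed the mean Z score of all window contacts (0.134), of contacts with E2 to E7 (0.167), with TAD3 and TAD4 (0.0833) and of S100a8 (0.083). On the log2 observed over expected scale E2 to E7 gave 0.16 and S100a9 −0.0186, S100a9 gave −0.232 over all contacts each library lists, and a window 15 kb narrower at each end gave 0.0827 for E2 to E7. Contacts inside the window gave −0.078 as Z scores and −0.605 as log2 corrected frequency. Leaving out 1 library at a time gave −0.0727 to 0.222 inside the window, −0.68 to 0.177 for E2 to E7, −0.117 to 0.129 for S100a9 and −0.26 to 0.107 for the window minus the S100a2 to S100a6 stretch. TAD2, TAD6 with TAD7, and S100a7a kept their direction under every alternative run, but with 1 library left out TAD6 with TAD7 ranged from −0.324 to −0.0201, S100a7a from −1.58 to −0.683, TAD3 with TAD4 from −0.776 to −0.347, all window contacts from −0.354 to −0.0178 and TAD2 from −1.20 to −0.783.

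At a q-value under 0.01 the keratinocyte interactions numbered 42, and those in keratinocytes only 15. Calls that rest on 1 library of a cell type ranged from 266 to 484 in keratinocytes and 324 to 414 in thymocytes, with 15 to 135 in keratinocytes only and 31 to 157 in thymocytes only, so the requirement of both libraries sets these counts. The shares behind the counts of 266 to 484 and 324 to 414 are given above for each library, beside those over all contacts. limma passed 0 window contacts in each alternative that kept all 4 libraries. In these, 61 to 80 window contacts had an unadjusted p under 0.05 (5.56% to 7.29%, against 4.95% to 5.77% of all contacts).

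The labels number the libraries without pairing them, and same-numbered libraries did not deviate together (correlation −0.0937 over 23395 contacts, 2 numbers). With the number as a replicate block limma passed 0 contacts. The mean difference of −0.186 cannot change under such a block, since each number occurs once in each cell type. Read depth is not known, so no limit from it can be given.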

Other observations

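Some thymocyte interactions of the window had no keratinocyte value at all. The fragment at the start site of Them4 in TAD6 was met by fragment 169 at 917 and 413 (expected values of 94.5 and 75.5) and by fragment 176 at 1176 and 515 (expected values of 93.4 and 65.8) in the 2 thymocyte libraries, and fragment 180 met an intron of Tuft1, which encodes tuftelin, at 754 and 482. Neither keratinocyte library lists these 3 contacts, so no comparison can be made for them.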
